A study of Mus musculus with 9 samples.

Results

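Synaptic vesicle and release machinery genes encode the proteins that fill, dock, prime and fuse vesicles at presynaptic terminals. The 36 genes described here were listed by name and not by a measured value, but earlier results of these data were known when they were chosen. They were 36 of the 20895 genes tested in dorsal root ganglia (DRG) after nerve injury. Their probes were found by gene name, older symbol or RefSeq identifier, and the brightest probe stood for each gene. The study used whole L3/L4 DRG of adult mice, which hold the cell bodies of sensory neurons together with satellite glia, Schwann cells, macrophages and vessels. The uninjured group had 4 arrays (labelled control) and the injured group had 5 arrays (labelled lesion, sciatic nerve transection). All mice of both groups were labelled cre.neg and jun.wt, that is, without Cre and with wild-type Jun. The source label of both groups named 3 days after transection, so the groups were taken from the treatment label, and the study's results text gave an earlier time point and the series text L4 only. The labels named no animals, so the number of mice per array is unknown, and p-values measure the spread between these samples. The comparison asked which of these genes differed in mRNA level between injured and uninjured DRG.

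At a terminal, syntaxin 1A and SNAP-25 on the plasma membrane pair with VAMP on the vesicle to form the SNARE complex that drives fusion. RIM, Munc13, piccolo and bassoon build the active zone, where vesicles are docked and primed beside calcium channels, and synaptotagmins on the vesicle sense the calcium that triggers release. Synapsins hold vesicles in reserve, Rab3 and its effectors tether them, and vesicular glutamate transporters load them. Sensory neurons make these mRNAs in the ganglion, while most of their release sites lie far away in the spinal cord. The arrays measured the RNA of the whole ganglion.

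Each array compared DRG RNA labelled with Cy5 with a universal mouse reference RNA labelled with Cy3, with no dye swap. Each value is therefore a log2 ratio of Cy5 over Cy3, and the level of one gene is not set against that of another. Pairs of related genes are compared below only in how their ratios changed. The median Cy5 intensity lay between 156.3 and 237.8 and between 71% and 78.9% of spots were above background. The injury label was checked with Atf3, an injury-induced transcription factor, which was higher by 5.14 on the log2 scale (standard error 0.0686, limma adjusted p = 2.73e-11), with Sprr1a at 4.99 and Gal at 1.76. The arrays lay on 3 slides. Slide 1 held uninjured arrays 2, 3 and 4, slide 2 held uninjured array 1 and injured arrays 1, 2 and 5, and slide 3 held injured arrays 3 and 4, so slide and injury overlapped in large part. All 15 sensory neuron markers were measured, with summed raw Cy5 intensities from 1314000 to 1438000 in uninjured and from 977600 to 1359000 in injured DRG. These sums and those of the other markers below are not normalized between arrays, so they also vary with an array's brightness. Injured array 5 had the lowest sum and the lowest median Cy5 intensity. In normalized log2 ratios its mean of these markers was the highest of the 9 arrays, 0.14 relative to the uninjured mean. Of the 15 sensory neuron markers, 0 were called higher and 3 lower, and their median log2 difference was -0.05, from Scn9a at -0.54 to Prph at 0.16. Markers of other cells also differed between arrays, and their part in the results below was not tested. The 6 muscle markers summed to between 1053 and 1292 in uninjured and between 971.3 and 24150 in injured DRG, with injured arrays 2 and 4 the high ones (Ckm 0.58 and Tnnt3 1.55 were the ends of the list, 0 of 6 called). The 4 measured red blood cell markers summed to between 49640 and 74960 and between 66720 and 381200 (Hbb-bt 0.27 to Slc4a1 1.09, 0 called). The 8 macrophage markers summed to between 17880 and 37570 and between 24020 and 95280 (Cd163 at -0.25 to Aif1 at 0.90, 2 called higher). For the 6 satellite glia markers the sums were between 399700 and 434800 and between 362500 and 442600 (Cdh19 at -0.08 to Glul at 0.78, 2 called higher), for the 8 Schwann cell markers between 236000 and 407600 and between 186900 and 402900 (Ncmap at -0.15 to Mag at 0.74, 0 called), and for the 5 markers of dividing cells between 3501 and 4313 and between 2917 and 6851 (Cdk1 at -0.00 to Mki67 at 0.45, 1 called higher). At an unadjusted limma p under 0.05, 1 muscle, 3 red blood cell and 2 Schwann cell markers were higher, and 0 sensory neuron markers were higher and 4 lower.

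All 36 presynaptic genes were above background in Cy5 on all 9 arrays, and none was saturated. In uninjured DRG the log2 ratio to the reference was above 0 for 34 of them, from Snap25 at 7.59 down, and below 0 for Syn1 and Sypl. These are the ratios of the brightest probes, and a second Syn1 probe on the same transcript was at 2.64. After injury the mRNAs of 9 genes fell and those of 4 rose (limma, adjusted p under 0.05), which left 23 that did not pass. The genes that fell were the active zone genes Rims2, Pclo, Rims1 and Unc13a, the synaptotagmins Syt7 and Syt1, the Rab3 effector Rph3a, the vesicle protein Sv2b and the complexin Cplx2, whereas Syt4, Stx1a, Slc17a6 and Syngr1 rose. Thus 36.1% of the presynaptic genes were called, where 25.4% of all genes tested were called, 11.4% higher and 14% lower. The 4 rises among 36 genes lay near the share of all genes called higher, and the 9 falls lay above the share called lower, which was not tested. The changes were small. Among the presynaptic genes 3 changed by more than 1.5-fold (Syt4, Rims2 and Syt7), where 5.94% of all genes did so, and the median log2 difference was -0.09, where it was 0.00 over all genes. Of the 36 genes, 12 were called and had injured arrays wholly to one side of the uninjured arrays, where 21.6% of all genes tested met both criteria, and Syt1 was the called gene whose groups overlapped. Without uninjured array 3, 2 genes rose, since Syngr1 and Slc17a6 no longer passed. Without injured array 2 or 4, on which muscle markers were high, 9 genes fell, and 4 and 3 genes rose. The 9 were not the same genes without injured array 2, where Syt1 no longer passed and Syt2 passed as lower. Without injured array 4, Syngr1 no longer passed. The split between falls and rises also moved with the scaling: 11 fell and 1 rose with each array only centred on its median, and 9 fell and 2 rose with spots flagged as uneven kept. In whole ganglia fewer cells of a type and less RNA per cell cannot be told apart.

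**Figure D1:**
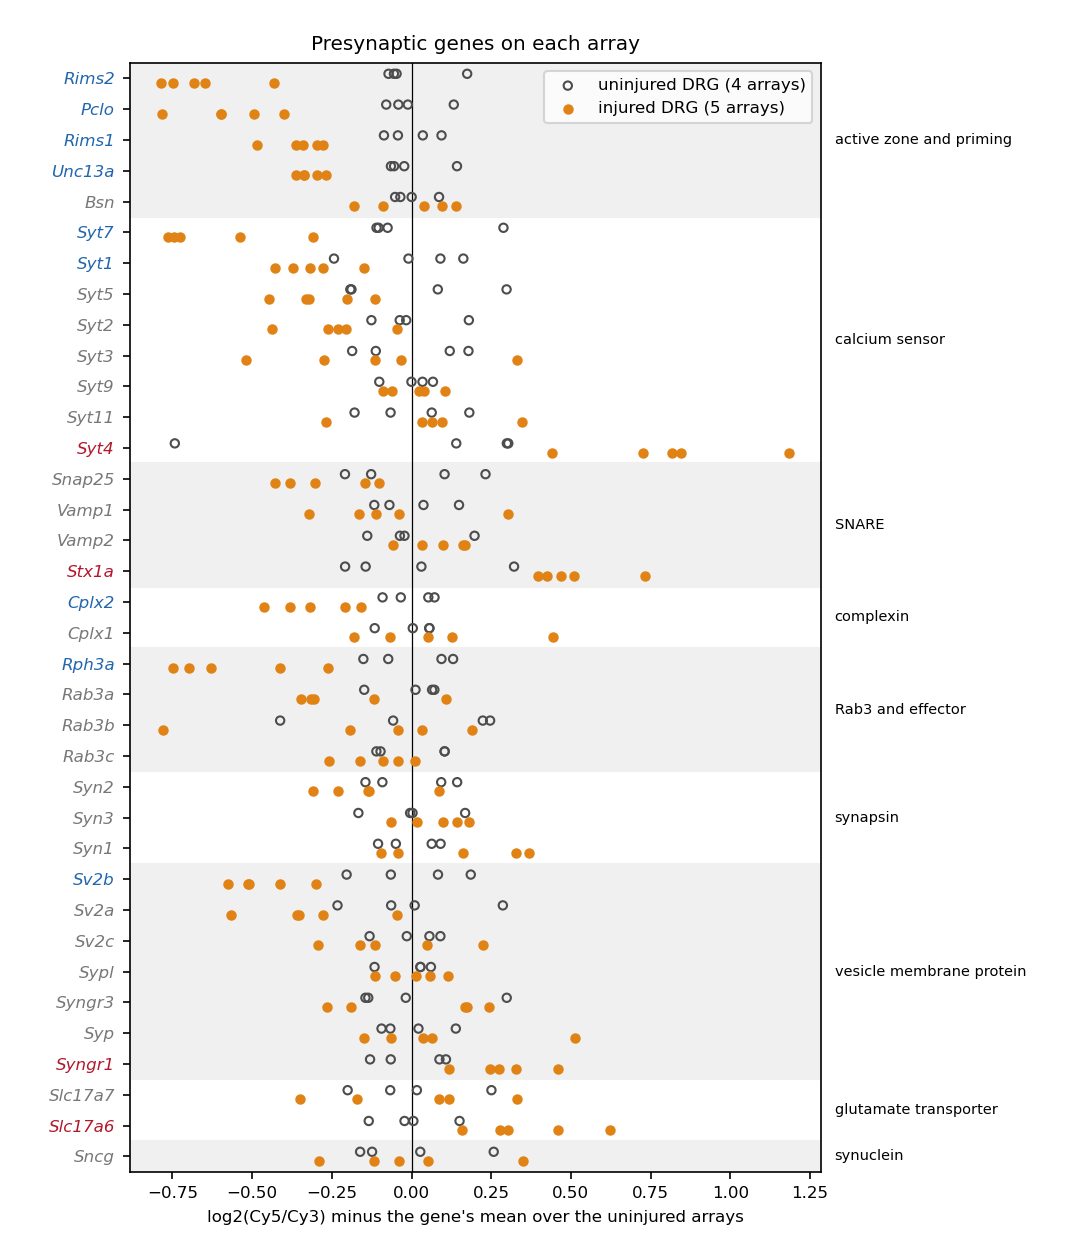
Log2(Cy5/Cy3) of each of the 36 presynaptic genes on each of the 9 arrays, minus that gene's mean over the 4 uninjured arrays (open circles uninjured, filled circles injured, 1 point per array). Gene names in blue fell and those in red rose (limma, adjusted p under 0.05), and the active zone genes Rims2, Pclo, Rims1 and Unc13a show injured points to the left of all uninjured points, whereas Bsn does not.

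The active zone and priming genes were the group with the most falls, 4 of 5 by their brightest probes, where 14% of all genes tested fell. The second probe of Rims1 did not pass and that of Unc13a rose. Rims2, which encodes the RIM2 scaffold that recruits vesicles and calcium channels to the release site, had log2 ratios of 4.02, 3.79, 3.78 and 3.80 on uninjured arrays 1 to 4 and of 3.42, 3.20, 3.06, 3.17 and 3.10 on injured arrays 1 to 5. Every injured array was below every uninjured array, and uninjured array 1 was higher than the other uninjured arrays. Rims2 fell by 0.66 on the log2 scale (standard error 0.0847, limma adjusted p = 0.000305, 1.58-fold lower). Its probe lies at chr15:39689451-39689510 on the plus strand of build mm7. The Cy3 reference was not above background for this probe on any of the 9 arrays, and in the Cy5 channel alone the difference was -0.65. With Agilent's own ratio, which uses another background model, it was -0.47 and did not pass (limma adjusted p = 0.229).

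Rims1, which encodes the related RIM1, had log2 ratios of 4.09, 3.91, 3.96 and 4.04 in uninjured and 3.64, 3.66, 3.70, 3.72 and 3.51 in injured DRG. All injured arrays were lower, and both groups had narrow spreads (SD 0.0804, n = 4, and 0.0820, n = 5). Rims1 fell by 0.35 (standard error 0.0641, limma adjusted p = 0.00256, 1.28-fold lower), and was at -0.12 with Agilent's ratio (limma adjusted p = 0.399). In the Cy5 channel alone Rims1 was at -0.76, a larger difference than that of Rims2 in that channel. The second probe of Rims1, 268 kb away, was at -0.10 and did not pass (limma adjusted p = 0.385 over all probes).

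Unc13a encodes Munc13-1, which opens syntaxin and thereby primes docked vesicles. Its log2 ratios were 2.79, 2.63, 2.58 and 2.59 on the uninjured arrays and 2.38, 2.29, 2.31, 2.31 and 2.35 on the injured arrays. The groups did not overlap, and the injured arrays lay close together (SD 0.0374). The fall was 0.32 (standard error 0.0597, limma adjusted p = 0.00296) for the brightest probe, at chr8:70094137-70094196 of mm7. A second probe that the files also assign to Unc13a, 33.5 kb away at chr8:70127593-70127652 and designed on the cDNA clone AK010728, had ratios of -1.519, -1.466, -1.581 and -1.441 in uninjured and -1.178, -0.979, -1.019, -1.002 and -1.072 in injured DRG. All injured arrays were higher for this probe, a rise of 0.45 (standard error 0.0618, limma adjusted p = 0.000464 over all probes). The direction of Unc13a thus holds for 1 of its 2 probes only, and with both averaged the difference was 0.07 (limma adjusted p = 0.361).

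Pclo, the gene of the large scaffold piccolo, had log2 ratios of 5.19, 5.22, 5.36 and 5.15 in uninjured and 4.83, 4.73, 4.44, 4.63 and 4.63 in injured DRG. Every injured array lay well below the uninjured arrays, injured array 3 lowest. Pclo fell by 0.57 (standard error 0.0820, limma adjusted p = 0.000584), and both of its further probes fell as well, by 0.71 and 0.75. Bsn, the gene of piccolo's close relative bassoon, had ratios of 0.04, -0.00, 0.12 and -0.02 in uninjured and 0.07, -0.15, -0.06, 0.13 and 0.17 in injured DRG, so that the groups overlapped fully. Its difference was -0.00 (95% interval -0.17 to 0.17), and its probe was dim, with Cy5 intensities between 113.1 and 141.7. The 4 genes that fell were also lower within slide 2, where 1 uninjured array can be set beside 3 injured arrays. Since their groups did not overlap, this was fixed in advance and is no separate support.

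**Figure D2:**
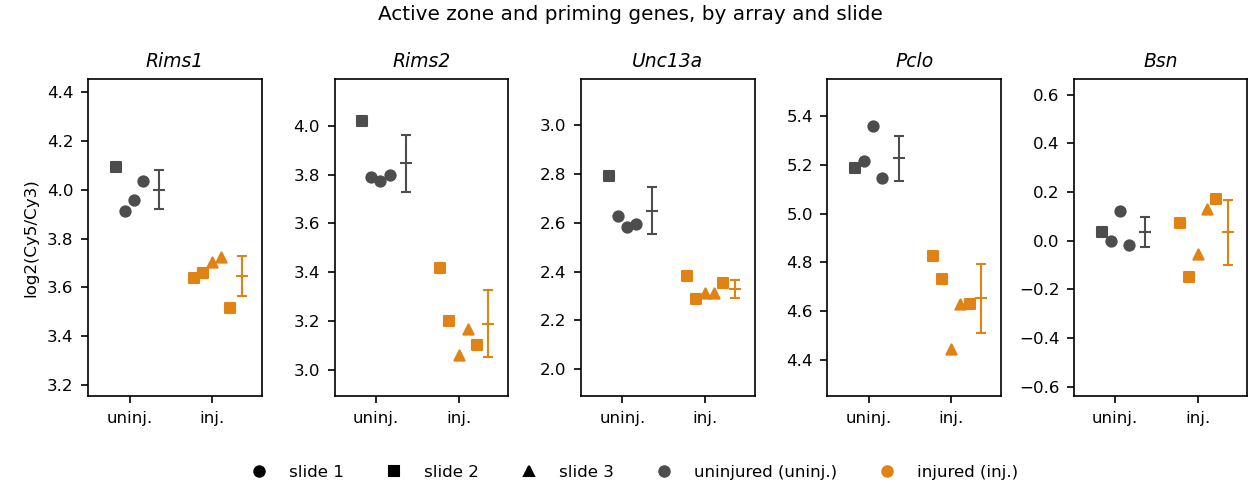
Log2(Cy5/Cy3) of the 5 active zone and priming genes on each array (grey uninjured, n = 4, orange injured, n = 5; bars show mean and SD; each panel spans the same height on the log2 scale). Symbols give the slide. Rims1, Rims2, Unc13a and Pclo are lower on every injured array than on every uninjured array, and therefore also among the square symbols of slide 2. The points of Bsn overlap.

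RefSeq promoter sequences were at hand for 28 of the 36 genes, each 300 bases long, from 250 bases before an annotated transcript start on, in build GRCm38.p6 (39 promoters, since some genes have several). The 4 below are shown because 3 of them belong to active zone genes that fell and the fourth, of Syn1, holds the most motif matches. Capitals mark exact matches on either strand to the half-sites of RE1 (CAGCACC and GGACAGC), the element bound by the neuronal repressor REST, or to the cAMP response element (CRE, TGACGTC), whose matches on both strands overlap. AP-1 sites (TGANTCA) were also searched. Unc13a lies at chr8:71671708-71672007 on the minus strand, Rims1 at chr1:22806109-22806408 on the minus strand, Pclo at chr5:14514668-14514967 on the plus strand, and Syn1 at chrX:20920869-20921168 on the minus strand.
Unc13a: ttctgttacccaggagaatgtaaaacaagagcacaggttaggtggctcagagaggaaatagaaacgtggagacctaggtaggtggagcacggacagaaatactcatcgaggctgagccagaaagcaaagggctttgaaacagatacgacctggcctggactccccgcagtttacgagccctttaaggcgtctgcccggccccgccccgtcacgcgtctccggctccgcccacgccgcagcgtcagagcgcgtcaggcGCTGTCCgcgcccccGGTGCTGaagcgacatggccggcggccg
Rims1: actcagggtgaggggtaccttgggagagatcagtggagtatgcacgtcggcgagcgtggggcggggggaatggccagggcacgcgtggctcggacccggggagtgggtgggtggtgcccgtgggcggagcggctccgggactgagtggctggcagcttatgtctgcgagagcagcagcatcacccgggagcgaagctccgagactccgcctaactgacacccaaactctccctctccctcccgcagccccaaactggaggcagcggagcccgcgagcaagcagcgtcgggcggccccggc
Pclo: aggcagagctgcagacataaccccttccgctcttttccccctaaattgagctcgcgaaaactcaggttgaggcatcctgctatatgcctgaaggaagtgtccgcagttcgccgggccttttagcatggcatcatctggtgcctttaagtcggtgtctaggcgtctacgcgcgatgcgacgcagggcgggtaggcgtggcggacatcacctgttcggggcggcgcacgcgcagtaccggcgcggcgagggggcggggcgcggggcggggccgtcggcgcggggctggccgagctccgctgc
Syn1: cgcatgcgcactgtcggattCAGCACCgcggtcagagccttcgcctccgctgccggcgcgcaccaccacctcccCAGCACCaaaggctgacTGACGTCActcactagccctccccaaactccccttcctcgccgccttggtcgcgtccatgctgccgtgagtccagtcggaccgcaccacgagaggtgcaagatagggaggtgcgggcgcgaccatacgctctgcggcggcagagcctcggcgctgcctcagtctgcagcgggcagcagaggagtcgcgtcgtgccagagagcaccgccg
The Unc13a promoter holds both RE1 half-sites on the strand opposite to the gene, starting 7 and 22 bases after the transcript start, while Rims1 and Pclo hold no match to any of the 4 motifs. Syn1, a gene long studied as a REST target, holds CAGCACC in 2 places and the CRE in 1 place read from both strands. Among the promoters of presynaptic genes 10.3% held CAGCACC, 10.3% GGACAGC, 5.13% the CRE and 7.69% an AP-1 site. Among all 32851 promoters of the table the shares were 7.14%, 6.56%, 3.21% and 7.81%. The 4 promoters of the 3 genes that rose and are in the table (Stx1a, Slc17a6 and Syngr1) held none of the motifs. Of the 13 promoters of the 7 genes that fell, 2 held CAGCACC (15.4%), 3 held GGACAGC (23.1%), 1 held an AP-1 site and 0 held the CRE, all of them in Unc13a or Rph3a. In base composition the promoters of presynaptic genes had a median of 61.3% G and C, where all promoters had 52.7%. These matches describe the letters of the windows and were not tested.

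Among the 8 synaptotagmins 2 fell and 1 rose, so 37.5% were called, where 25.4% of all genes tested were. Syt7, a calcium sensor of high affinity linked to slow release and vesicle replenishment, had log2 ratios of 1.965, 2.328, 1.930 and 1.937 in uninjured and 1.729, 1.293, 1.501, 1.277 and 1.313 in injured DRG. The groups did not overlap, and uninjured array 2 stood above the other uninjured arrays. Syt7 fell by 0.62 (standard error 0.116, limma adjusted p = 0.00307, 1.53-fold lower), and its further probes, on other transcripts, fell by 0.42 and 0.28.

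Syt4 moved the other way. It encodes a synaptotagmin of dense-core and post-Golgi vesicles that is known as an activity-induced gene. Its log2 ratios were 6.34, 5.29, 6.18 and 6.34 in uninjured and 6.86, 6.88, 6.48, 7.22 and 6.76 in injured DRG. Each injured array was above each uninjured array, and uninjured array 2 was far below the other uninjured arrays. Syt4 rose by 0.80 (standard error 0.217, limma adjusted p = 0.0202, 1.74-fold higher), and by 0.56 without uninjured array 2. A second probe rose by 0.88 (standard error 0.101), with uninjured array 2 lowest again, at 4.99, but close to the others. The reference was not above background for the first probe on any array, and in Cy5 alone the rise was 0.86. With Agilent's own ratio Syt4 was at 0.14 (limma adjusted p = 0.752).

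Syt1, the fast calcium sensor of synchronous release, had ratios of 6.481, 6.309, 6.075 and 6.409 in uninjured and 5.891, 5.948, 5.998, 6.170 and 6.042 in injured DRG. Injured array 4 lay above uninjured array 3, so the groups overlapped. The fall was 0.31 (standard error 0.0899, limma adjusted p = 0.0288), the least secure of the 9, since it passed in 3 of the 9 fits that left out 1 array. All 4 further probes of Syt1 were also lower, by 0.36 to 0.58, and 3 of them passed. The other synaptotagmins did not pass. Syt2, the relative of Syt1 that serves fast synapses of the hindbrain and spinal cord, was at -0.24 (95% interval -0.43 to -0.04), Syt5 at -0.28, Syt3 at -0.12, Syt9 at 0.00 and Syt11, which does not bind calcium, at 0.05.

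Of the SNARE genes only Stx1a passed. Stx1a, which encodes syntaxin 1A, had ratios of 1.01, 1.30, 0.83 and 0.77 in uninjured and 1.71, 1.40, 1.37, 1.45 and 1.49 in injured DRG. All injured arrays were higher, uninjured array 2 coming nearest to them. Stx1a rose by 0.51 (standard error 0.112, limma adjusted p = 0.00748), and within slide 2 the difference was 0.53. Its SNARE partner gene Snap25 was lower on average, with ratios of 7.70, 7.38, 7.47 and 7.83 in uninjured and 7.17, 7.45, 7.21, 7.29 and 7.49 in injured DRG, and the groups overlapped. The difference of -0.27 did not pass (limma adjusted p = 0.0844), although 2 further probes of Snap25, at -0.34 and -0.38, did (limma adjusted p = 0.0226 and 0.0400 over all probes). Vamp1 was at -0.07 (95% interval -0.32 to 0.19) and Vamp2, the main vesicular SNARE of forebrain synapses, at 0.08 (95% interval -0.09 to 0.26).

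Complexins clamp the SNARE complex until calcium arrives. Cplx2 had ratios of 3.12, 3.18, 3.27 and 3.29 in uninjured and 3.06, 2.75, 2.83, 3.01 and 2.90 in injured DRG. The groups did not overlap, although injured array 1 came close to uninjured array 1. Cplx2 fell by 0.31 (standard error 0.0744, limma adjusted p = 0.0123). Its 3 further probes were lower, at between -0.63 and -0.20, but none passed (limma adjusted p between 0.0923 and 0.331 over all probes), and neither did their average with the first, at -0.42 (limma adjusted p = 0.106). For Cplx1 the ratios were 6.12, 6.06, 5.94 and 6.11 in uninjured and 5.88, 6.11, 5.99, 6.19 and 6.50 in injured DRG, with the highest and the lowest value both in the injured group. Its difference was 0.07 and did not pass.

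The Rab3 genes themselves did not pass, while the gene of a Rab3 effector fell. Rph3a, which encodes rabphilin 3A, had ratios of 5.13, 5.29, 5.05 and 5.33 in uninjured and 4.50, 4.57, 4.45, 4.79 and 4.94 in injured DRG. Injured array 5 came nearest to the uninjured arrays, without overlap. Rph3a fell by 0.55 (standard error 0.108, limma adjusted p = 0.00406), while its only further probe, at -0.67, did not pass (standard error 0.268, limma adjusted p = 0.101 over all probes). Of the small GTPases, Rab3a was at -0.20 (95% interval -0.41 to 0.02), Rab3b at -0.16 and Rab3c at -0.11. The ratios of Rab3c were 3.24, 3.02, 3.24 and 3.04 in uninjured and 3.09, 3.04, 2.87, 3.14 and 2.97 in injured DRG, with overlap.

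Synapsins did not pass in either direction by their brightest probes. Syn1 had ratios of -0.19, -0.02, -0.13 and 0.01 in uninjured and -0.18, 0.29, -0.12, 0.08 and 0.25 in injured DRG, a difference of 0.14 (95% interval -0.09 to 0.37). Syn2 had ratios of 5.49, 5.26, 5.21 and 5.44 in uninjured and 5.04, 5.22, 5.12, 5.21 and 5.44 in injured DRG, a difference of -0.15 (95% interval -0.35 to 0.06). The groups overlapped for both. A second probe of Syn2, 1.40 kb away and on another transcript, fell by 0.53 (limma adjusted p = 0.000644 over all probes). A second probe of Syn1 on the same transcript differed by 0.04 and did not pass. Its uninjured mean ratio was 2.64, where that of the brightest probe was -0.08, so the 2 probes disagree in level. Syn3 was at 0.08.

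Among the 7 vesicle membrane proteins 1 fell and 1 rose, so 28.6% were called, where 25.4% of all genes tested were. Sv2b belongs to the SV2 transporter-like glycoproteins of vesicles and had ratios of 6.05, 5.76, 5.90 and 6.15 in uninjured and 5.45, 5.67, 5.45, 5.39 and 5.55 in injured DRG. Every injured array was lower, with injured array 2 nearest to the uninjured ones. Sv2b fell by 0.46 (standard error 0.0888, limma adjusted p = 0.00352), but was at -0.09 with Agilent's ratio (limma adjusted p = 0.736). Its paralogue Sv2a was at -0.32 (limma adjusted p = 0.0751), with a second probe at -0.33 that passed (limma adjusted p = 0.0226 over all probes), and Sv2c at -0.06. Syngr1, the gene of synaptogyrin 1, had ratios of 0.40, 0.23, 0.17 and 0.38 in uninjured and 0.41, 0.57, 0.54, 0.76 and 0.62 in injured DRG. The groups nearly touched, at injured array 1 and uninjured array 1. Syngr1 rose by 0.29 (standard error 0.0809, limma adjusted p = 0.0256). Both probes on transcript NM_009303 were higher (0.29 and 0.15), but the second of them did not pass (limma adjusted p = 0.149 over all probes). The probe on the alternative transcript NM_207708 was at -0.11 and did not pass. Its uninjured mean ratio was 4.48, where that of the brightest probe was 0.30, so these probes disagree in level. Synaptophysin (Syp), the most used marker of vesicles, was at 0.08 (95% interval -0.19 to 0.35), Syngr3 at 0.03 and Sypl at 0.00.

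Slc17a6, the vesicular glutamate transporter VGLUT2 of most nociceptors, rose. Its ratios were 6.27, 6.41, 6.24 and 6.13 in uninjured and 6.56, 6.88, 6.54, 6.72 and 6.42 in injured DRG. The groups did not overlap, though injured array 5 nearly reached uninjured array 2. The rise was 0.36 (standard error 0.0971, limma adjusted p = 0.0194). It was 0.34 for another probe and 0.26 with Agilent's ratio, where it did not pass. Slc17a7, the transporter VGLUT1 of large mechanoreceptive and proprioceptive neurons, had ratios of 2.22, 2.67, 2.44 and 2.35 in uninjured and 2.54, 2.51, 2.07, 2.25 and 2.75 in injured DRG. Its difference was 0.00 (95% interval -0.30 to 0.31). Sncg, the gene of γ-synuclein, which is abundant in sensory neurons, had ratios of 5.80, 5.65, 5.61 and 6.03 in uninjured and 5.48, 5.74, 5.66, 5.83 and 6.12 in injured DRG and a difference of -0.01, with full overlap.

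Relatives within a family were compared on the same arrays in 12 pairs, by the difference of their log2 ratios on each array (exact permutation test, two-sided, 126 ways to divide the 9 arrays, Benjamini-Hochberg over the 12 pairs). Such a difference cancels the scaling of an array. Syt4 moved apart from Syt1 by 1.11 (exact p = 0.00794, adjusted p = 0.0476), and Syn2 from Syn1 by -0.29 (exact p = 0.00794, adjusted p = 0.0476). That p is the smallest these group sizes allow. Syt4 and Syt1 were already called in opposite directions on these arrays, so their difference is no separate support. The pairs were read by the brightest probes. The second Syn1 probe was at 0.04 where the brightest was at 0.14, and the second Syn2 probe at -0.53 where the brightest was at -0.15. Syt11 against Syt4 differed by -0.75 and Rims2 against Rims1 by -0.31 (both adjusted p = 0.0952 in the exact test), and neither passed. Cplx1 differed from Cplx2 by 0.38 (adjusted p = 0.133 in the exact test), and Slc17a6 from Slc17a7 by 0.36 (adjusted p = 0.218 in the exact test). The remaining pairs, Syt2 with Syt1, Sv2b and Sv2c with Sv2a, Vamp1 with Vamp2, and Rab3b and Rab3c with Rab3a, differed by between -0.15 and 0.26 and did not pass.

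Several probes per gene gave a second reading of the same arrays. The 36 genes had 79 probes, 76 of which passed the filter, and 23 genes had more than 1 passing probe. Of the 40 further probes 32 had the sign of the brightest probe of their gene. For the called genes this held for 19 of 21 further probes, of which 11 were themselves called the same way and 1, that of Unc13a, the opposite way. Rims1 is a case of disagreement in size, since its second probe, 268 kb away, was at -0.10 and did not pass. For Syt11 both probes on its RefSeq transcript were at 0.05 and -0.08, whereas 2 probes that the files assign to Syt11 by cDNA clones, 55.0 and 60.6 kb away, fell by 0.48 and 0.45, and another such probe, 84.9 kb away, was at 0.25 (limma adjusted p = 0.190 over all probes).

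**Figure D3:**
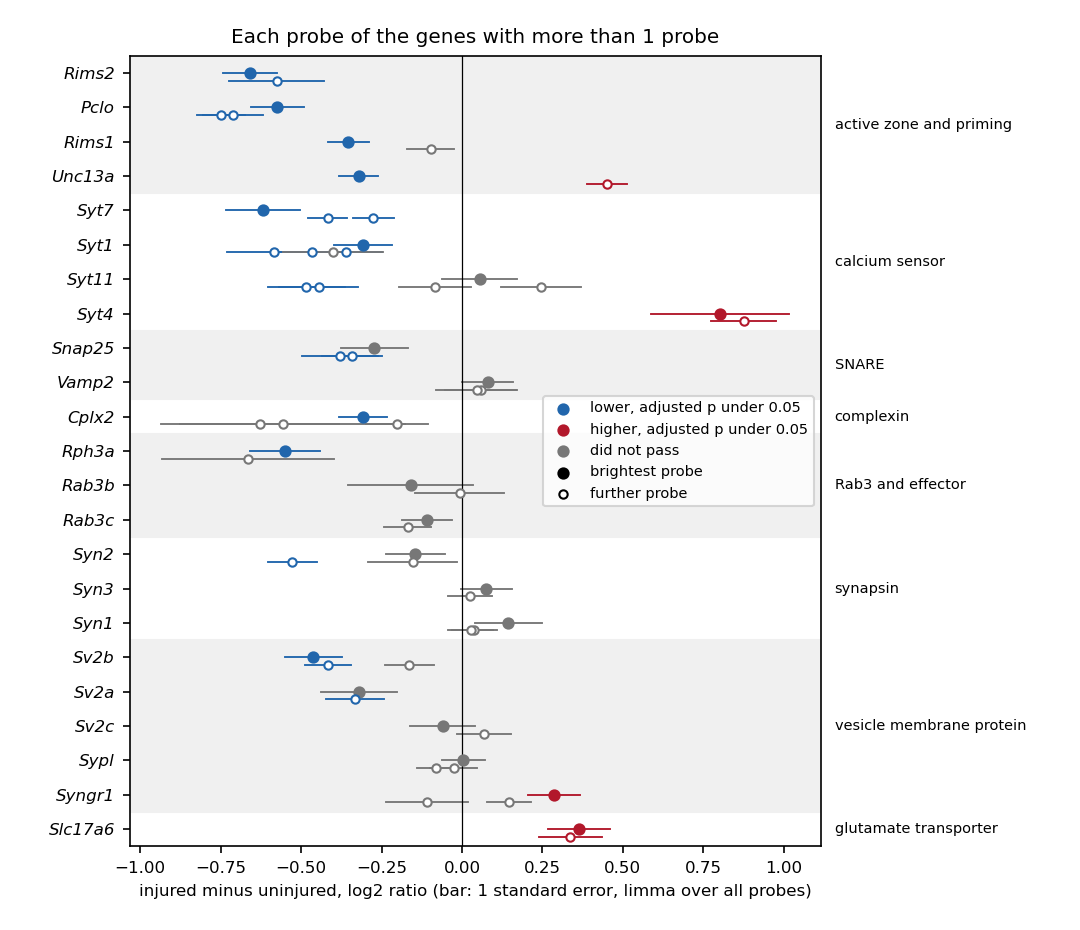
Injured minus uninjured difference of the log2 ratio for every passing probe of the 23 presynaptic genes with more than 1 passing probe (filled, brightest probe; open, further probes; bars, 1 standard error from limma over all probes; blue and red, lower and higher at an adjusted p under 0.05). The further probes of Pclo, Rims2, Syt7, Syt4 and Slc17a6 lie on the same side as the brightest one, and the open red point of Unc13a lies opposite.

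Slide 2 was the only slide with both groups, so a fit with slide as a fixed block takes its difference from uninjured array 1 against injured arrays 1, 2 and 5. Uninjured array 1 was the highest uninjured array for Rims2, Unc13a and Rims1. For 12 of the called genes the groups did not overlap, so their direction was fixed in advance in this fit. All 13 called genes kept their direction in it, and 3 remained called, where 5.66% of all genes tested were called. The 3 were Rims2 (-0.78, limma adjusted p = 0.0139), Unc13a (-0.45, limma adjusted p = 0.0343) and Rims1 (-0.49, limma adjusted p = 0.0372), all of the active zone. At an unadjusted p under 0.05, 8 presynaptic genes were lower and 2 higher in this fit. Among the other genes that fell, Pclo was at -0.46 (limma adjusted p = 0.0921), Syt1 at -0.52 (limma adjusted p = 0.0843), Sv2b at -0.49 (limma adjusted p = 0.116), Syt7 at -0.52 (limma adjusted p = 0.219), Rph3a at -0.46 (limma adjusted p = 0.247) and Cplx2 at -0.22 (limma adjusted p = 0.406). Among those that rose, Stx1a was at 0.53 (limma adjusted p = 0.192), Slc17a6 at 0.35 (limma adjusted p = 0.326), Syt4 at 0.49 (limma adjusted p = 0.524) and Syngr1 at 0.13 (limma adjusted p = 0.652). Compared with the differences over all arrays, those of Syt4 and Syngr1 were more than 1.5 times smaller and that of Syt1 more than 1.5 times larger.

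**Figure D4:**
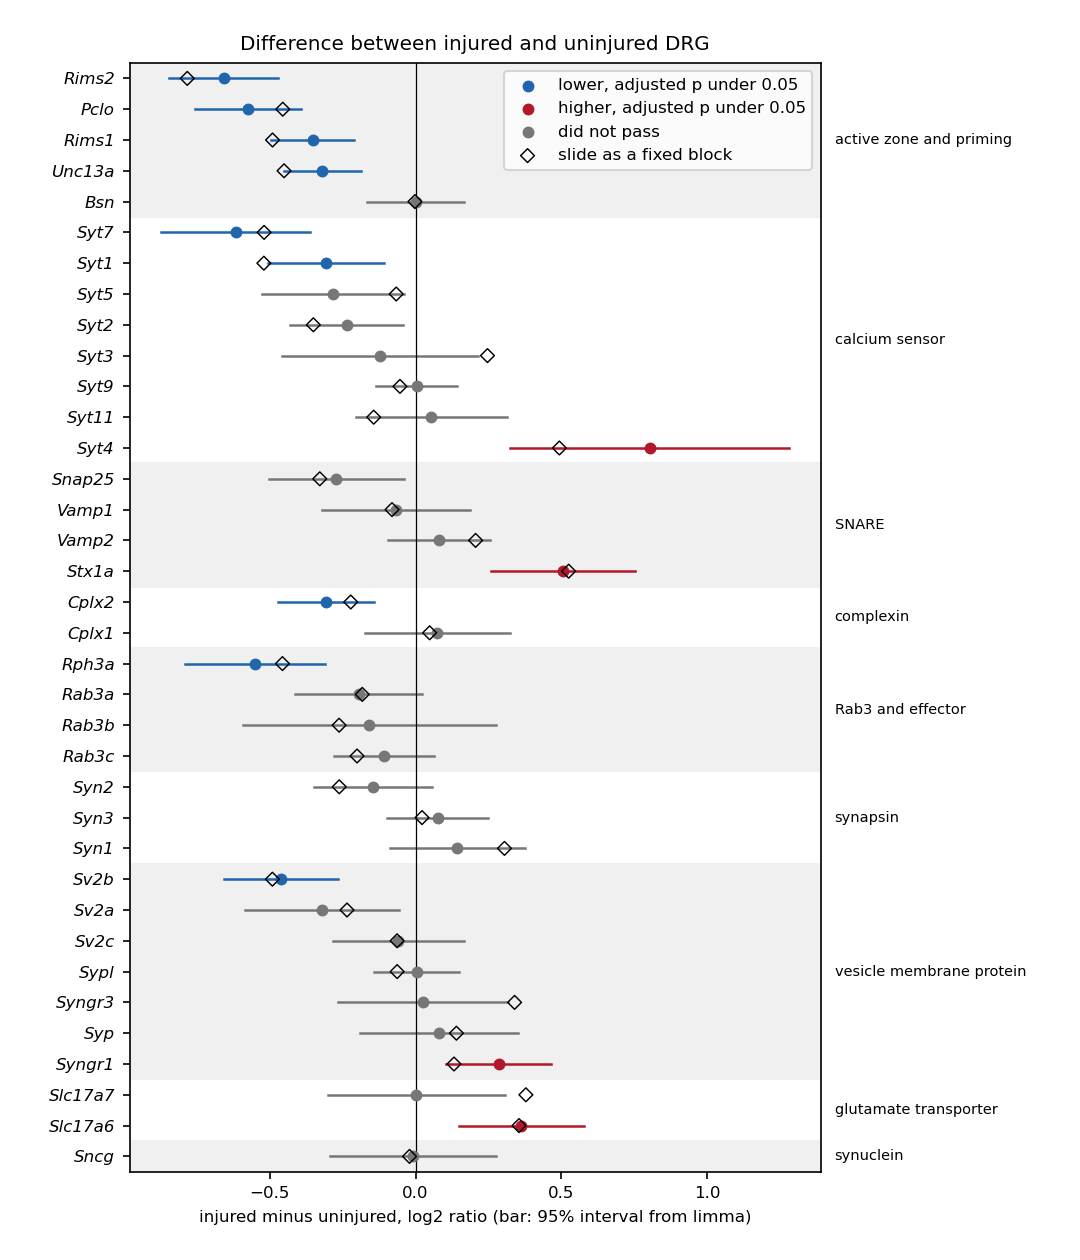
Injured minus uninjured difference of the log2 ratio of each presynaptic gene (points, with 95% intervals from limma over the 9 arrays; blue lower, red higher, grey did not pass) and the same difference with slide as a fixed block (open diamonds). The diamonds of all 13 called genes lie on the same side of 0 as their points, which was fixed in advance for the 12 whose groups did not overlap.

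For the 23 genes that did not pass, 21 had 95% intervals within 1.5-fold in both directions, and those of Sv2a and Rab3b reached past it on the lower side. The intervals of 4 of them (Syt2, Syt5, Sv2a and Snap25) lay wholly below 0 although the adjusted p did not pass. On each array the mean of the 36 genes, relative to the uninjured arrays, was between -0.08 and 0.05 in uninjured and between -0.23 and 0.02 in injured DRG, and injured array 5 was the highest of its group. The mean of the 9 genes that fell was between -0.06 and 0.04 in uninjured and between -0.52 and -0.40 in injured DRG. These 9 genes were picked because they fell on these same arrays, so the separation of their mean was given by that choice. The sensory neuron markers were at between -0.10 and 0.09 and between -0.26 and 0.14 on the same scale, and the difference between the lists was not tested.

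The other presynaptic genes were read from a longer list of 114 further genes of the same pathway, 108 of which were tested (Cplx4, Syt8, Syt14, Doc2b, Slc30a3 and Syndig1 were not). Of these 17 fell and 10 rose, that is, 25% were called, where 25.4% of all genes were. Their median log2 difference was -0.02. The largest falls were those of Rab27b (-1.46, limma adjusted p = 0.00130), a small GTPase of secretory vesicles, Nrxn3 (-0.64, limma adjusted p = 0.00227), a presynaptic adhesion receptor, the vesicle protein Synpr (-0.62, limma adjusted p = 0.00230) and the synaptotagmin Syt16 (-0.59, limma adjusted p = 0.0331). Rab27b ranged from 3.27 to 3.44 in uninjured and from 1.15 to 2.54 in injured DRG. The largest rises were those of Syt12 (0.50, limma adjusted p = 0.0151), the synaptotagmin-like Sytl3 (0.45, limma adjusted p = 0.0147), the endophilin Sh3gl1 (0.40, limma adjusted p = 0.00126) and Rab3gap2 (0.39, limma adjusted p = 0.00318), a subunit of the Rab3 GTPase-activating complex. By role, active zone and priming genes had 7 falls and 1 rise among 23, vesicle proteins 6 falls and 2 rises among 25, calcium sensors 1 fall and 3 rises among 14, SNAREs and their regulators 2 falls and 2 rises among 24, and vesicle recycling genes 1 fall and 2 rises among 22. The falls among active zone genes included the RIM-binding protein gene Rimbp2 (-0.55), the dense-core vesicle priming factor Cadps2 (-0.48) and Unc13b (-0.23), which encodes Munc13-2.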

How the data were processed

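Total RNA of 9 DRG samples was measured on 2-colour Agilent arrays. The spot brightness and local background deposited by the authors are scanner intensities that, per the file headers, Agilent Feature Extraction 10.5.1.1 wrote without normalization. Per the file headers, log10 ratios beside them were background-subtracted and dye-normalized by Agilent's software. A further table deposited by the authors holds log2 values of Cy5 over Cy3, for which the submitters' processing notes name limma but no settings. Quality flags in the deposited files mark spots above background, saturated spots and spots of uneven feature or background.

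Here the intensities were read into limma 3.58.1 (R 4.3.3). Spots flagged as uneven in feature or background (between 2 and 26 per array) were left out before normexp background correction (offset 50), and loess within each array (span 0.3, 4 iterations) and averaging of repeated spots followed. Of 41174 probes, 31186 passed a filter (Cy5 above background on 4 or more arrays), and the brightest probe per gene was kept. The log2 ratios had slopes between 1.005 and 1.014 against the authors' values. Probe names were matched to RefSeq symbols by accession (23082 probes), symbol (6582) or older name (3073), while 8437 kept their name in the file. Probe positions are those of the files, on build mm7, which do not give exon or intron. Promoters came from RefSeq on GRCm38.p6.

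Groups were compared with limma's moderated test (two-sided, Benjamini-Hochberg over all 20895 genes, adjusted p under 0.05) and single pairs with an exact permutation test. The number of arrays limits the precision: the SD of the difference between arrays of a group was between 0.208 and 0.350. On simulated data with 200 changed genes, 97% of changes of 1 and 71% of changes of 0.5 on the log2 scale were recovered, and 2.89% of calls were unchanged genes. In the measured data 5312 genes were called, and several called presynaptic genes changed by less than 0.5. These rates therefore need not hold for the calls reported here. The presynaptic genes, the other lists and the tests were chosen with earlier results of these data known. Each presynaptic gene was named with its difference. Values on every array were due for genes that passed with a change above 1.5-fold and for both ends of each role, and were added for all others that passed and for some relatives. From the longer list the 4 largest falls and rises among called genes were named, and Rimbp2, Cadps2 and Unc13b were added after their values were seen. Of each marker list the highest and lowest member was named. Alternatives were other background, normalization, filter, probe and slide settings, the authors' values and leaving out each array. Plots were made in Python 3.11.15 (matplotlib 3.10.9). Some genes are not reported here.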

Additional observations from a re-analysis of the deposited data

Results flagged for a closer look

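In 3 of the 72 gene and group combinations 1 array stood far from the rest of its group, where chance gives about 1 in 20. Syt4 had a log2 ratio of 5.29 on uninjured array 2, with the other uninjured arrays between 6.18 and 6.34. On the same array Syt7 was at 2.33, with the others between 1.93 and 1.97. Rims2 was at 4.02 on uninjured array 1, with the others between 3.78 and 3.80.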

How the results depend on the processing

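No paired analysis was possible because neither animals nor pairs of ganglia are named in the labels. With all uneven spots kept, 2 presynaptic genes rose, the median log2 difference of the 36 was -0.19, and 6 other presynaptic genes rose (Syt1, Syt4 and Slc17a6 no longer passed). With median centring in place of loess, 2660 genes in all were called, 1 presynaptic gene rose, the median was -0.17, and of the other presynaptic genes 1 rose and 11 fell (Syngr1, Stx1a, Cplx2 and Slc17a6 no longer passed). With Agilent's ratio 2 presynaptic genes rose and 5 other ones fell (Syt1, Syt4, Sv2b, Rims1, Rims2 and Slc17a6 no longer passed). Syt1 was also lost in the authors' values and in Cy5 alone, Syngr1, Cplx2 and Unc13a with averaged probes, and Syngr1, Cplx2, Rph3a, Rims1 and Unc13a with the second brightest probe. With slide as a fixed block 1182 genes were called, 0 presynaptic genes rose and 3 fell, and of the others 1 rose and 1 fell. The causes were not tested, except that the slide block compares 4 arrays only. Leaving out 1 array gave 4029 to 5451 called genes, 2 to 4 presynaptic genes that rose (2 without uninjured array 3), 8 to 11 that fell, a median between -0.14 (without injured array 5) and -0.03 (without injured array 3), and 7 to 11 rises and 12 to 16 falls among the others. Of the called genes, Syt1 passed in 3, Syngr1 in 6 and Slc17a6 in 7 of those 9 fits, and the other 10 genes in all 9. No other count moved by more than 1.5 times under the remaining settings (no background correction, the authors' values, Cy5 alone, no filter, a stricter filter, slide as a random block, averaged probes).

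Among the genes whose sign turned, Unc13a and Syngr1 had passed, and Syt2 had an interval below 0. Signs also turned for 4 pair differences that had not passed, among them that of Rims2 and Rims1. The log2 differences with the sign turned were, with all spots kept, Syt9 -0.12, Sypl -0.0021, Syngr3 -0.10, Bsn 0.014, Slc17a7 -0.16 and Rab3c minus Rab3a -0.023. Without background correction they were Bsn 0.0030, Slc17a7 -0.0014 and Sncg 0.00047. With median centring they were Syt9 -0.071, Syt11 -0.070, Syp -0.015, Sypl -0.090, Syngr3 -0.044, Vamp2 -0.0030, Cplx1 -0.026, Bsn 0.0037 and Slc17a7 -0.047. With Agilent's ratio they were Syt2 0.15, Syngr3 -0.10, Sncg 0.0077, Sv2b minus Sv2a 0.24 and Rab3b minus Rab3a -0.0081. In the authors' values they were Slc17a7 -0.0073, Rab3b minus Rab3a -0.080 and Rab3c minus Rab3a -0.021. In Cy5 alone they were Syt9 -0.075, Syt11 -0.067, Syp -0.033, Sypl -0.041, Cplx1 -0.060, Bsn 0.083, Slc17a7 -0.0017 and Rims2 minus Rims1 0.11. With slide as a fixed block they were Syt3 0.25, Syt9 -0.054, Syt11 -0.14 and Sypl -0.063, and as a random block Slc17a7 -0.028 and Sncg 7.3e-05. With probes averaged they were Syt11 -0.14, Sypl -0.034, Sv2c 0.0045 and Unc13a 0.066. With the second brightest probe, a setting chosen after seeing the data, they were Syt11 -0.083, Sypl -0.079, Syngr1 -0.11, Sv2c 0.069 and Unc13a 0.45. Leaving out 1 array gave ranges across 0 for Syt9 -0.030 to 0.027, Syt11 -0.019 to 0.14, Syp -0.028 to 0.14, Sypl -0.035 to 0.033, Syngr3 -0.028 to 0.13, Cplx1 -0.018 to 0.14, Bsn -0.035 to 0.045, Slc17a7 -0.079 to 0.091, Sncg -0.099 to 0.077 and Rab3b minus Rab3a -0.12 to 0.15. All 36 genes were above background in Cy5 on every array, whereas Rims2 and Syt4 were not in Cy3, and the number of arrays and slides limits all values.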
